A study of Mus musculus with 9 samples.

Results

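Msln, Anxa8 and Tmprss11f were followed in mouse retinal ganglion cell (RGC) cultures as genes whose RNA rose from normal to aging RGCs and rose again from aging RGCs to aging RGCs + USCs medium. The 3 genes were chosen for this pattern out of the 22322 genes of the expression table, so their levels in the 9 libraries and their fold changes are a description and carry no test. All 3 passed the filter on low counts, which left 12145 genes. Wild-type (WT) mouse RGCs, bought as a culture, made up all groups. Normal RGCs received neither agent. Aging RGCs were treated with D-galactose, a sugar used in the study to induce senescence. The last group consisted of aging RGCs, and so carried the D-galactose treatment too, cultured in medium conditioned by USCs, which are mesenchymal stem cells grown from urine of healthy people. Each group had 3 libraries, and the time in culture before sequencing is not given in the sources used here. No library of normal RGCs in USCs medium was analysed here, so an effect of the medium alone and an effect on aged cells cannot be told apart. In the paper, USCs were grown in a medium of their own, other than that of the RGCs. No library of RGCs in that medium unconditioned was analysed here, so base medium and products of USCs cannot be told apart either. The libraries of a group came from replicate cultures of 1 cell source, and the p-values below therefore measure the spread between these cultures and not between animals.

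Mesothelin, encoded by Msln, is a glycoprotein tethered to the cell surface by a lipid anchor. It is made as a precursor that the protease furin cleaves, can be shed from the surface by other proteases, and binds the mucin MUC16. In healthy tissue it is best known from the mesothelium, the cell layer that lines body cavities. Annexin A8, encoded by Anxa8, belongs to a family of proteins that bind phospholipid membranes in the presence of calcium, and is linked to late endosomes. Tmprss11f encodes a serine protease held in the membrane near its amino terminus, of the HAT/DESC group of type II transmembrane serine proteases, whose genes lie next to each other and are known mainly from epithelia.

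The genes lay on 3 different chromosomes of the GRCm38 (mm10) mouse genome, with GENCODE M21 coordinates. Msln (ENSMUSG00000063011) occupied chr17:25748613-25754378 on the minus strand with 17 exons and overlapped no other annotated gene. Anxa8 (ENSMUSG00000021950) occupied chr14:34085981-34100571 on the plus strand with 12 exons. It lay wholly inside the span of A630023A22Rik, a gene on the opposite strand. Tmprss11f (ENSMUSG00000048764) occupied chr5:86521898-86632424 on the minus strand with 11 exons.

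The 250 bases before the start site were read from RefSeq (GRCm38.p6) for Anxa8 and Tmprss11f. The sequences are shown 5′ to 3′ on the strand of the gene, chr14:34085729-34085978 (plus) for Anxa8 and chr5:86632425-86632674 (minus) for Tmprss11f. Capitals mark matches to the motifs searched.
Anxa8: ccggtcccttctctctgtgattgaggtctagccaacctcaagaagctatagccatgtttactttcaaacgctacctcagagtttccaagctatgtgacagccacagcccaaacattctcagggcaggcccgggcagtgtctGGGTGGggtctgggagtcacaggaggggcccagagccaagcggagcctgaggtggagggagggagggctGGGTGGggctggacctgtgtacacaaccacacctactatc
Tmprss11f: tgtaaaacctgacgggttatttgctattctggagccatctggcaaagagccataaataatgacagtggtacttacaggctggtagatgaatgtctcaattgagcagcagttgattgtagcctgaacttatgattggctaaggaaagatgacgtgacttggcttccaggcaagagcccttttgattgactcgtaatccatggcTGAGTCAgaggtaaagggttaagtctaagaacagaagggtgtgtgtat
The capitals in Anxa8 are 2 matches of the CACCC box (CCACCC, here read on the opposite strand) that begin 109 and 40 bases before the start site. The capitals in Tmprss11f are 1 match of the AP-1 motif TGANTCA, 48 bases before the start site. In all, 7 motifs were searched on both strands of the window from 250 bases before to 50 after the start. Among 32851 mouse windows of 300 bases, 31.5% held CCACCC and 7.8% held TGANTCA. Neither window held the STAT letters TTCNNNGAA, the TEAD letters GGAATG, the SP/KLF letters GGGCGG, the TATA box TATAAA or the GATA letters AGATAA, which were found in 8.3%, 14.7%, 35.7%, 13.6% and 11.2% of all windows. None of the motifs was matched in both promoters. Of their 300-base windows, 57.3% of the bases were G or C in Anxa8 and 42% in Tmprss11f, against a median of 52.7% over all windows. A match describes letters in these windows and not binding of a factor.

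Library totals ran from 18189616 to 22342288 expected counts, which are estimated numbers of reads per gene. Levels are given as counts per 1000000 (CPM), with library sizes scaled by the TMM method, and comparisons between genes as FPKM, the deposited value per transcript length and library size. Differences are log2 fold changes from edgeR with their standard error (SE). The cultures were labelled RGCs, and RGC markers were mixed in them. Of 15 RGC markers, Pou4f2, Pou4f3 and Atoh7 had 0 counts in all 9 libraries, Thy1 had 2 counts in total, and 5 passed the filter. Among these, Rbpms had 61.2, 49.6 and 48 CPM in normal RGCs, aging RGCs and USCs medium, Nefl 63.6, 38.4 and 17.3, Isl1 18.9, 12 and 13, and Tubb3 4.46, 2.59 and 21.2. Pou4f1 had only 0.456, 0.876 and 0.423 CPM in the same order. The groups are named as labelled.

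Msln counts were 58, 68 and 60 in normal RGCs, 204, 211 and 231 in aging RGCs, and 362, 398 and 348 in aging RGCs + USCs medium. Every aging library was above every normal library and below every library of USCs medium. The means were 2.92 ± 0.393 CPM, 11.2 ± 0.439 CPM and 18.7 ± 0.97 CPM (SD, n = 3 each). The log2 fold change of Msln was 1.94 (SE 0.127) in aging against normal RGCs and 0.74 (SE 0.0997) in USCs medium against aging RGCs. As ratios these are 3.84 and 1.67, and 6.42 from normal RGCs to USCs medium. Msln thus gained 8.28 CPM in the first step and 7.52 CPM in the second, which put 52.4% of its whole rise in the first. The 3 libraries of a group varied by 13.4%, 3.92% and 5.18% of their mean.

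Anxa8 counts were 47, 55 and 43 in normal RGCs, 150, 138 and 123 in aging RGCs, and 486, 500 and 458 in USCs medium. Here too the groups did not overlap. The means were 2.27 ± 0.341 CPM, 7.15 ± 0.943 CPM and 24.4 ± 0.831 CPM (SD, n = 3 each). The log2 fold change was 1.65 (SE 0.148) in the first step and 1.77 (SE 0.108) in the second, or ratios of 3.14 and 3.42. From normal RGCs to USCs medium Anxa8 was 10.7-fold higher. On the CPM scale the first step gave 4.87 and the second 17.3, so that 22% of the rise fell in the first.

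Tmprss11f was the least abundant of the 3, with 1, 3 and 11 counts in normal RGCs, 25, 35 and 25 in aging RGCs, and 84, 111 and 102 in USCs medium. The groups again did not overlap, and the smallest gap was between normal replicate 3 and the aging libraries. The means were 0.244 ± 0.264 CPM, 1.47 ± 0.288 CPM and 5.02 ± 0.623 CPM (SD, n = 3 each). Among normal RGCs the libraries varied by 108% of their mean, and the SD of their counts was 5.29 where counting alone would give 2.24. The log2 fold change was 2.62 (SE 0.441) in the first step and 1.76 (SE 0.272) in the second. With the libraries of a group pooled, 85 counts in aging against 15 in normal RGCs gave a ratio of 6.29 with a 95% counting interval of 3.61 to 11.7. The second step gave a pooled ratio of 3.41 (interval 2.67 to 4.39) and the whole rise 21.4 (12.8 to 38.8). These intervals cover counting error only, not the spread between cultures. The size of the first step rested on normal replicate 3, since the log2 fold change was 3.92 without it and 2.08 without normal replicate 1. The same held for the whole rise, which was 4.38 with all libraries, 5.68 without normal replicate 3 and 3.85 without normal replicate 1.

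**Figure D1:**
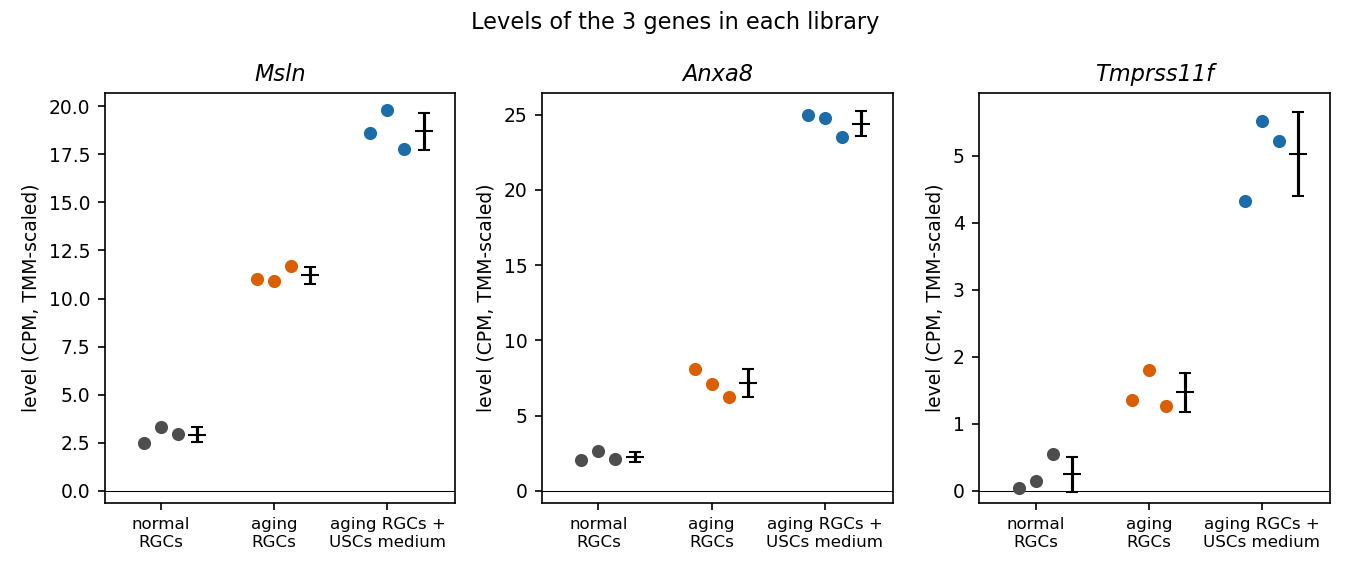
Levels of Msln, Anxa8 and Tmprss11f in CPM (vertical axes, linear, a separate scale for each gene) in the 3 groups, with 1 point for each library and the mean and SD of 3 libraries as bars. In each panel the aging libraries sit above all normal libraries and below all libraries of USCs medium, and the SD of Tmprss11f in normal RGCs (0.264) exceeds its mean (0.244).

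All 3 genes passed an adjusted p below 0.05 with at least 2-fold higher values in the first step, where 1.09% of the genes tested did so. In the second step 2 of 3 did, against 1.24% of the genes tested, and Msln stayed below 2-fold. The groups did not overlap in either step for 3 of 3 genes. Over all genes tested, 27% rose without overlap in the first step, 30.4% in the second and 7.7% in both. The genes were chosen on these contrasts, so nothing is read from these shares. By the size of the log2 fold change among 12145 genes, Tmprss11f ranked 13, Msln 31 and Anxa8 49 in the first step. In the second step Anxa8 ranked 57, Tmprss11f 59 and Msln 301. The median log2 fold change over all genes was 0.002 in the first step and -0.007 in the second. Both steps use the same aging libraries, so an error in that group moves them in opposite directions.

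Per transcript length, Msln was the most abundant of the 3 genes in normal RGCs, at 1.43 FPKM on average against 1.24 for Anxa8 and 0.0667 for Tmprss11f. The ranges of Msln (1.26 to 1.62) and Anxa8 (1.12 to 1.46) overlapped there, though Anxa8 was below Msln within each library. In aging RGCs the means were 5.39, 3.86 and 0.413 FPKM, with no overlap. In USCs medium the order of the upper pair turned, with Anxa8 at 12.5 and Msln at 8.56 FPKM, again without overlap, while Tmprss11f stayed lowest at 1.33. Within a library, the ratio of Anxa8 to Msln on the FPKM scale was 0.889, 0.901 and 0.81 in normal RGCs, 0.821, 0.734 and 0.598 in aging RGCs, and 1.51, 1.39 and 1.49 in USCs medium. Anxa8 was thus below Msln in 6 of 6 libraries without the medium and above it in 3 of 3 libraries with it.

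Against the other genes with a value in these cultures, all 3 were low to moderate. Msln lay above 31.6% of the detected genes in normal RGCs, above 46.5% in aging RGCs and above 55% in USCs medium. Anxa8 passed from 30.8% to 41.4% and 63.1%, and Tmprss11f from 14.4% to 25.3% and 31.7%. Tmprss11f therefore remained in the lower part of the detected genes even in its highest group.

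In all, 7 genes (0.0576% of those tested) were called 2-fold higher in both steps, namely Tmprss11f, Anxa8, Gsta1, Ccn2, Adam12, Shroom3 and Abcb11. Ordered by the smaller of their steps, Tmprss11f came first and Anxa8 second. Gsta1, a glutathione transferase, followed with log2 fold changes of 1.11 and 1.16, from 0.839 over 1.81 to 4.05 CPM. Ccn2, a secreted matricellular protein also known as connective tissue growth factor, went from 3.88 over 8.24 to 19.1 CPM. Adam12, a membrane metalloprotease, had 0.427, 0.898 and 3.42 CPM, and Shroom3, which organises actin at the apical side of epithelial cells, had 0.859, 1.77 and 5.34 CPM. Abcb11, a bile salt transporter, had 0.53, 1.42 and 2.88 CPM. Without the fold requirement 723 genes (5.95%) passed in both steps, and among these Msln ranked 10 by its smaller step, between Serpinb1a (0.79) and Il24 (0.72). The 2-fold count was 4 without normal replicate 1 and 9 without normal replicate 2, and edgeR's likelihood ratio test gave 11.

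**Figure D2:**
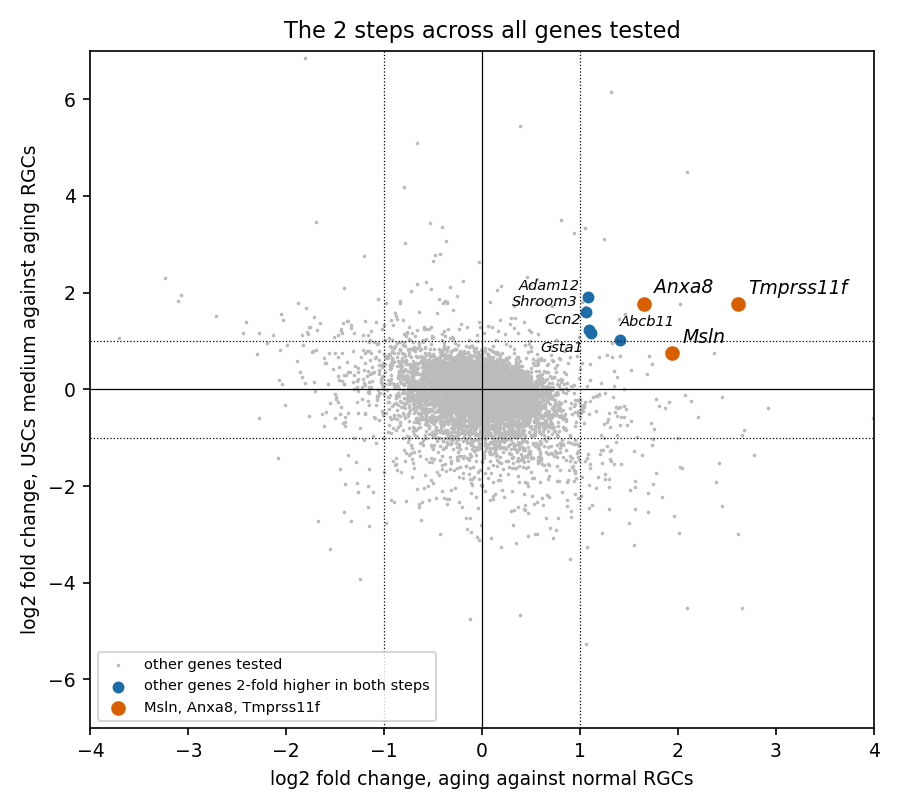
Each point is a gene tested, placed by its log2 fold change in aging against normal RGCs (horizontal) and in USCs medium against aging RGCs (vertical), with dotted lines at 2-fold and 12 genes beyond the axes. Tmprss11f lies farthest right of the named genes at 2.62, Anxa8 lies near the diagonal at 1.65 and 1.77, and Msln lies below the upper 2-fold line at 0.74.

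Genes whose log2 CPM followed that of a member most closely over the 9 libraries were found by Pearson's r among 11437 genes. These correlations share the 9 libraries and their 3 groups, and are given as a description. For Msln the closest were Noc3l and Sqle (r = 0.9967 each), Jpt2 (0.9961), Orc1 (0.9955) and Idi1 (0.995). Sqle and Idi1 encode enzymes of sterol synthesis, and Idi1 came nearest to Msln in size with log2 fold changes of 1.32 and 0.67. For Anxa8 they were Hspa4 (0.9983), Nasp (0.9977), Rrm2 (0.9972), Smarca5 (0.9955) and Ppih (0.9953). Rrm2, a subunit of ribonucleotide reductase, had log2 fold changes of 0.6 and 0.65, the largest of these 5 and below those of Anxa8. For Tmprss11f they were Depdc1a (0.99), Imp4 (0.988), Erg28 (0.9825), Cops3 (0.9812) and Trip13 (0.9808). A high r reflects the order and spacing of the groups and not the size of the change, since Hspa4 followed Anxa8 most closely with log2 fold changes of 0.11 and 0.12. Among themselves, Msln and Anxa8 had r = 0.958, and the other pairs 0.95 and 0.942.

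Of the annexin family, 11 genes other than Anxa8 were in the table and 9 were tested. In the first step 2 rose, 2 fell and 5 did not pass, where 23.6% of all genes tested rose and 23% fell at an adjusted p below 0.05. In the second step 5 rose, 3 fell and 1 did not pass, against 27.1% and 26%. The log2 fold changes of the 9 ran from -0.69 to 0.12 in the first step and from -0.29 to 0.46 in the second. Each lay below those of Anxa8, from which nothing is read since Anxa8 was chosen for its rise. The medians of the 9 were 0.02 and 0.2. Anxa2, a partner of S100a10 at the plasma membrane, had 871 CPM in normal RGCs, 919 in aging RGCs and 1120 in USCs medium. Its first step was 0.08 and its second 0.29 (SE 0.03). The call in the first step (adjusted p = 0.0339, edgeR quasi-likelihood test) was lost in 10 of 19 alternatives, with adjusted p up to 0.184. Anxa6 fell by 0.69 in the first step (SE 0.0366, Benjamini-Hochberg adjusted p = 6.28e-15, edgeR quasi-likelihood test). Anxa3 rose by 0.46 and Anxa7 by 0.44 in the second step, and Anxa7 had fallen by 0.25 in the first. Even in USCs medium, at 12.5 FPKM, Anxa8 stayed far under Anxa2 (763 FPKM), Anxa3 (89.8 FPKM), Anxa6 (48.4 FPKM) and Anxa7 (61.8 FPKM), and above Anxa9 (2.02 FPKM). Of 8 S100 genes that partner annexins, 7 were tested. In the first step 2 rose and 1 fell, and in the second 4 rose and 2 fell, with medians of -0.07 and 0.23. S100a11 rose in both steps, by 0.12 and 0.58.

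Most relatives of Tmprss11f had few or no counts. Of 19 other type II transmembrane serine proteases in the table, 6 had 0 counts in all 9 libraries and 3 passed the filter. A count of 0 allows up to 3 counts in a library, or 0.13 to 0.162 CPM. Tmprss11b had 4, 2 and 3 counts in normal RGCs, 7, 8 and 7 in aging RGCs, and 24, 17 and 21 in USCs medium. The order of groups was that of Tmprss11f, without overlap, as for 7.7% of all genes tested. Tmprss11b rose in the second step with a log2 fold change of 1.44 (SE 0.424, Benjamini-Hochberg adjusted p = 0.00522, edgeR quasi-likelihood test). The first step, at 1.40 (SE 0.605), did not pass (adjusted p = 0.0587 in the same edgeR test). Tmprss11e went another way, with 86, 79 and 71 counts, then 91, 96 and 86, then 62, 57 and 45. It fell by 0.77 in the second step (SE 0.18, Benjamini-Hochberg adjusted p = 0.000654, edgeR quasi-likelihood test). Hpn (hepsin) had 26 counts over the aging libraries and 3 over the libraries of USCs medium, a ratio of 0.112 with a counting interval of 0.0218 to 0.367, and passed as lower in edgeR's test (adjusted p = 0.00355).

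**Figure D3:**
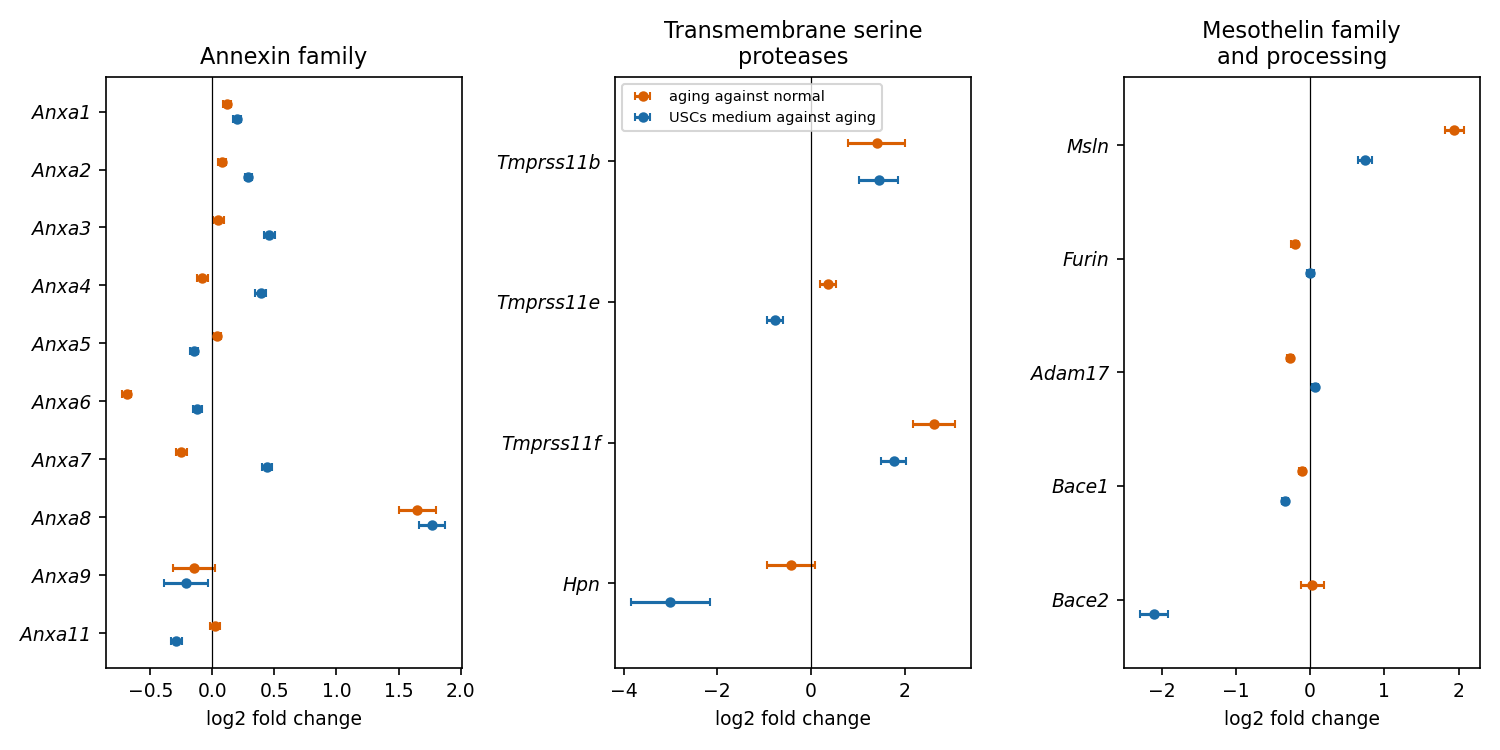
Log2 fold changes (horizontal axes) with SE as bars for Anxa8 among tested annexins, for Tmprss11f among tested transmembrane serine proteases and for Msln among tested genes of its processing, in aging against normal RGCs and in USCs medium against aging RGCs. Anxa8 lies at 1.65 and 1.77 while the other annexins lie between -0.69 and 0.46, and Tmprss11b is the relative nearest to Tmprss11f. Only the members were chosen for their rise, so nothing is read from their distance to the relatives.

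Among 13 inhibitors and substrates of surface serine proteases, 8 were tested. In the first step 2 rose, 4 fell and 2 did not pass, where 23.6% of all genes tested rose and 23% fell. In the second 3 rose, 2 fell and 3 did not pass, against 27.1% and 26%. Spint1, an inhibitor of membrane-bound serine proteases, had 10.8 ± 0.961 CPM in normal RGCs, 5.3 ± 0.516 in aging RGCs and 5.73 ± 1.09 in USCs medium (SD, n = 3). It fell by 1.02 in the first step (Benjamini-Hochberg adjusted p = 6.09e-07, edgeR quasi-likelihood test), opposite to Tmprss11f. Prss23, a secreted serine protease, rose by 0.64 in the first step.

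For Msln, the closest relatives and the ligand were near or at 0. Muc16, the mucin that mesothelin binds, and Strc (stereocilin) had 0 counts in all 9 libraries. Mslnl, the mesothelin-like gene next to Msln, had 10 counts in total and Otoa (otoancorin) 18. Of the proteases listed for its processing, Furin, Adam17 and Bace1 were measured at higher levels than Msln in each group, Bace2 only in normal RGCs. All 4 moved less in the first step than Msln, which was chosen for its rise. Bace1 had 150, 139 and 110 CPM and fell by 0.11 in the first step and by 0.34 in the second. Furin fell by 0.21 in the first step and had a log2 fold change of 0.00 in the second, at 145, 126 and 125 CPM. Adam17, a sheddase of many surface proteins, fell by 0.27 in the first step and had a log2 fold change of 0.07 in the second. Bace2, a membrane aspartic protease, had 5.46, 5.59 and 1.3 CPM and fell by 2.1 in the second step (SE 0.19, Benjamini-Hochberg adjusted p = 3.26e-10, edgeR quasi-likelihood test), in which Msln was higher.

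The 3 nearest annotated genes of the table on each side of a member were followed to see whether the rise extended along the chromosome. Next to Msln, 4 of 6 neighbours were tested. Chtf18 rose by 0.38 and Rpusd1 by 0.60 in the first step. In the second step, in which Msln was 1.67-fold higher, Chtf18 had a log2 fold change of 0.02 and Rpusd1 fell by 0.25, a call lost in 5 of 19 alternatives with adjusted p up to 0.194 (edgeR without USCs medium replicate 3). Next to Anxa8, 2 of 6 were tested and neither passed in either step. One of them is A630023A22Rik, whose span holds Anxa8 on the other strand. It had 22, 12 and 19 counts in normal RGCs, 22, 13 and 19 in aging RGCs and 6, 6 and 16 in USCs medium. Its log2 fold change in the second step was -0.98 (adjusted p = 0.0659, edgeR quasi-likelihood test), and it passed as lower in 5 of 18 alternatives, among them -1.61 without USCs medium replicate 3 (adjusted p = 0.0137). Whether strand was used in counting is not given in the sources used here, and without strand reads from overlapping exons of the pair cannot be told apart. Next to Tmprss11f, 3 of 6 were tested, Tmprss11b, Tmprss11e and Ythdc1. The start site of Tmprss11b lies 43.9 kb from that of Tmprss11f and that of Tmprss11e 113 kb. Ythdc1 rose by 0.14 in the first step and had a log2 fold change of -0.06 in the second. On the other side, Tmprss11g had 0, 0 and 0 counts in normal RGCs, 2, 0 and 0 in aging RGCs, and 6, 2 and 2 in USCs medium, too few to be tested.

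**Figure D4:**
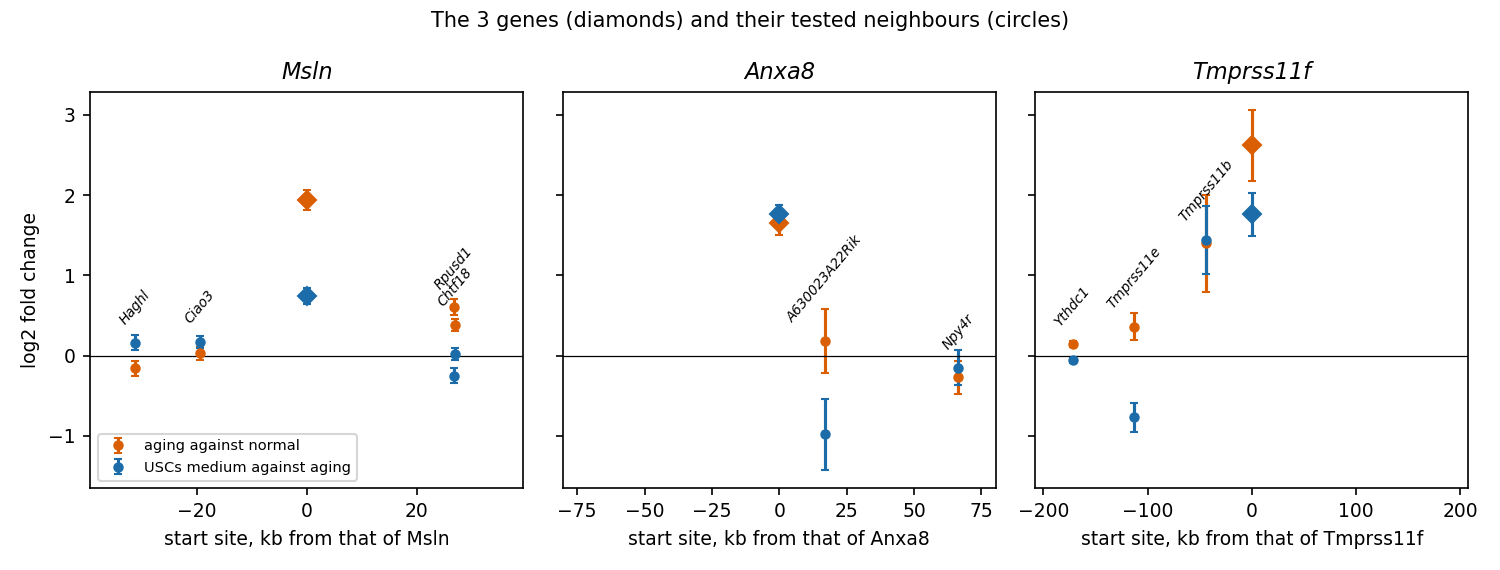
Log2 fold changes (vertical axes, SE as bars) of each member and its tested neighbours against the distance of their start sites from that of the member in kilobases (horizontal axes, positive values downstream in the direction of the member). Each member lies above its tested neighbours in both steps, and the nearest in size is Tmprss11b, 43.9 kb from Tmprss11f, at 1.40 and 1.44. The members were chosen for their rise and the neighbours were not, so nothing is read from this order.

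Markers of cell types that carry these genes were summed to see whether such cells moved with them. Of 17 mesothelial markers other than Msln, 6 had 0 counts in all libraries, among them the defining markers Wt1, Calb2 and Upk1b, and 5 were tested. In the first step 1 rose and 4 fell, and in the second 4 rose and 1 did not pass, where 23.6% and 27.1% of all genes tested rose and 23% and 26% fell. Upk3b, Krt7 and Gpm6a had 1, 3 and 1 counts in total, and Lrrn4, Efemp1 and Cdh1 had 11, 15 and 11. Summed over the list, normal libraries held 1220 to 1330 CPM, aging libraries 1210 to 1240 and libraries of USCs medium 1420 to 1470. Nearly all of this sum came from Krt8, Krt18, Krt19 and Pdpn, with 410, 321, 365 and 178 CPM in normal RGCs. With the defining markers at 0 counts, the sum cannot show whether mesothelial cells moved. Krt8, a keratin of simple epithelia, was the 1 tested marker of this list that rose in both steps, by 0.45 and 0.35, and at 410, 560 and 714 CPM it made up much of the sum. Bnc1, a transcription factor of basal epithelial and mesothelial cells, fell by 1.31 and rose by 1.17. Pdpn (podoplanin) fell by 0.42 and rose by 0.51, Krt18 fell by 0.35 and rose by 0.16, and Krt19 fell by 0.41 in the first step and had a log2 fold change of -0.09 in the second. Of 22 markers of stratified epithelia, Krt5 and Sprr3 had 0 counts and 9 were tested, of which 2 rose, 3 fell and 4 did not pass in each step. Their sum was 167 to 171, 128 to 135 and 135 to 146 CPM in the same order of groups. Most of it came from Klf5, Ppl and Klf4, with 50.5, 46 and 33.6 CPM in normal RGCs, so it too rests on few genes. Dsc3, a desmosomal cadherin, had 1 count over the aging libraries and 47 over those of USCs medium, a ratio of 45.8 with a counting interval of 7.83 to 1850. Krt15, a keratin of basal cells, rose by 1.22 in the first step and fell by 2.96 in the second, unlike all 3 members. Evpl rose in the first step, with 7 counts over the normal libraries and 42 over the aging libraries. That is a ratio of 6.66 with a counting interval of 2.96 to 17.6, and Evpl did not pass in the second step. Sprr1a fell by 1.03 in the first step, as did Klf4 by 0.7 and Klf5 by 0.82. In the second step Klf5 rose by 0.75, while Sfn fell by 0.91 and Krt13 by 0.27. The part of such cells in the rise of Msln, Anxa8 and Tmprss11f was not tested. In bulk RNA, more cells of a type and more RNA per cell cannot be told apart.

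The deposited annotation gave what the members share beyond their levels. None of the 3 had a KEGG pathway, as was the case for 57.1% of the genes tested. All 3 carried the cellular component plasma membrane, which 20.7% of the genes tested carried. Msln and Tmprss11f also carried cell surface, which 2.96% carried.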

How the data were processed

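RNA-sequencing values of 9 libraries of mRNA enriched by oligo(dT) were used, 3 per group, grouped by the sample titles. The authors deposited an expected count and an FPKM value for each gene and library. Expected counts are estimated reads, not normalized, and 6.92% to 7.38% of them had decimals, so they were rounded. FPKM values were scaled by the authors to transcript length and library size. The build was mm10 per the submitters' processing notes. Aligner, counting program and strand setting: not given in the sources used here.

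With filterByExpr, 12145 genes were kept (45.6% were not tested). edgeR 4.0.16 (R 4.3.3) fitted 1 mean per group to all 9 libraries with TMM factors (0.9562 to 1.034), 6 residual degrees of freedom and the quasi-likelihood test. A gene was called at a Benjamini-Hochberg adjusted p below 0.05 over all genes tested, and 2-fold where the absolute log2 fold change was at least 1. "Rose" and "fell" refer to the adjusted p alone. Correlations used log2 CPM with a prior count of 2. The depth, 18189616 to 22342288 counts per library, limits genes such as Tmprss11f, where 1 count is a large share of the level. Scripts were tested on simulated data. No batch is given in the labels. Libraries of a group differed by more than counting noise, so none was counted as a duplicate. The replicate numbers were not taken as pairs, since deviations of libraries with the same number had correlations of -0.037 to 0.048.

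Msln, Anxa8, Tmprss11f, the gene lists and the tests were chosen with earlier results of these data known. Other genes named were list genes called or needed for a sentence, up to 10 genes called 2-fold higher in both steps by their smaller step, the 5 genes of highest Pearson r with each member (in both cases only genes averaging 0 or more in log2 CPM), and the 3 nearest genes on each side. Serpinb1a and Il24, the ranks next to Msln, were added with their values known. As alternatives, the fits were repeated with DESeq2 1.42.0, limma 3.58.1 on log2(FPKM + 1) and log2(FPKM + 0.1), a likelihood ratio test, other scaling and filters, a replicate block and without each library in turn.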

Additional observations from a re-analysis of the deposited data

How the results depend on the processing

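The alternatives reuse the libraries on which the 3 genes were chosen, so for these genes they describe the processing and carry no test. All 3 genes kept their direction in both steps under every alternative run. Called 2-fold higher were 3 in the first step and 2 in the second, in each run but 1. That run, limma on log2(FPKM + 1), had 2 and 1. That pseudocount understates changes of low genes. It gave log2 fold changes of 1.4, 0.58 and 1.98 for Msln (first step, second step, whole rise), 1.11, 1.48 and 2.59 for Anxa8, and 0.41, 0.72 and 1.13 for Tmprss11f. It called 19 genes higher and 47 lower in the first step, 53 and 76 in the second, 62 and 167 over the whole rise, 1 higher in both steps, and 1 related gene in each step where edgeR called 6 and 7. Related genes are those of the annexin, S100, protease, inhibitor and substrate, mesothelin, mesothelial and stratified epithelial lists, without the members. With the members these lists held 100 genes, tested or not. Over all 12145 genes tested, edgeR called 132 higher and 190 lower in the first step, and 150 and 511 in the second. Nothing is read from the counts of related genes. With log2(FPKM + 0.1), Msln was 0.66 and 2.5 in the second step and the whole rise, Anxa8 3.24 in the whole rise, Tmprss11f 1.7, 1.49 and 3.19, and 119 genes were higher in the whole rise. Without TMM factors Msln was 0.66 in the second step. Without the fold threshold 2861 and 2788, 3292 and 3154, and 3716 and 3634 genes were higher and lower, and 723 higher in both steps. With the 2-fold threshold kept, the likelihood ratio test gave 11 higher in both steps where the main fit gave 7. A filter of 1 CPM in 3 libraries left 4 related genes called in the second step. With each library left out in turn, there were 124 to 145 and 175 to 217 genes in the first step, 143 to 162 and 483 to 535 in the second, 173 to 189 and 614 to 702 in the whole rise, 4 to 9 in both steps, and 3 (without aging replicate 1) to 7 and 6 to 8 related genes. Msln ranged over 1.84 to 2.03, 0.7 to 0.78 and 2.58 to 2.78, Anxa8 over 1.55 to 1.77, 1.68 to 1.87 and 3.35 to 3.55, and Tmprss11f over 2.08 to 3.92, 1.66 to 1.94 and 3.85 to 5.68. The direction turned for small changes that did not pass: Bace2 in the first step (-0.16 and -0.23 with FPKM, -0.04 to 0.1 over the libraries left out), Chtf18 in the second (-0.05 without TMM factors, 0 with upper-quartile factors, -0.05 and -0.06 with FPKM, -0.03 to 0.08 over the libraries left out), and, over the libraries left out, Spint1 (-0.05 to 0.2) and Npy4r (-0.31 to 0.07) in the second and Anxa11 (-0.02 to 0.05), Ciao3 (-0.04 to 0.07) and A630023A22Rik (-0.02 to 0.37) in the first. The cause was not tested. Tmprss11b passed in the second step in 18 of 18 alternatives that tested it, with adjusted p from 0.000547 to 0.0307, and in the first in 1 of 17. Among other named genes, calls in the first step were lost for Anxa2 (10 of 19 alternatives), Adam12 (3 of 19) and Shroom3 (1 of 19). Calls in the second step were lost for Rpusd1 (5 of 19), Adam12 (2 of 19), Anxa6 (2 of 19) and Bnc1 (1 of 19). The call of Evpl in the first step was lost in 1 of 18. In the second step, A630023A22Rik was called lower in 5 of 18, Ythdc1 lower in 4 of 19 and Ciao3 higher in 2 of 19. The replicate block gave 129 and 189 genes in the first step, 150 and 507 in the second and 7 in both, and Msln, Anxa8 and Tmprss11f stayed at 1.94, 1.65 and 2.61 in the first. Depth limits Tmprss11f most, whose normal level rests on 15 counts.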
